A study of Mus musculus with 10 samples.

Results

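The cytosolic ribosome of mouse peritoneal macrophages is described here through the genes of its proteins. Members were the rows whose gene symbol is Rpl or Rps followed by a number, with at most 1 further letter (a, l or x) and 1 further digit, together with Rplp0, Rplp1, Rplp2 and Rpsa, and without rows named as pseudogenes by the ending -ps. The rule found 89 of the 54532 rows of the table and used no measured value. Of the 89, 43 encode proteins of the large subunit, 31 proteins of the small subunit and 3 the stalk, 7 are paralogs of a core gene, and 5 are other genes annotated as pseudogenes in GENCODE M21, as is 1 of the paralogs, Rps4l, although their symbols do not say so. Genes entered the test from a mean of 10 normalized counts upward, taken across all 10 libraries, which 82 members and 11506 genes of the whole table reached.

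Ribosomal proteins surround the ribosomal RNA of the small subunit, which reads the mRNA, and of the large subunit, which joins amino acids. Most of these proteins are needed in about equal number. In mammals most of their mRNAs begin with a C followed by a run of pyrimidines, the terminal oligopyrimidine (TOP) element. Through this element the kinase complex mTORC1 and the protein LARP1 set their translation. A few have work outside the ribosome: Rpl5 and Rpl11, bound to 5S rRNA, can inhibit the p53 regulator MDM2, and Rpl13a silences inflammatory mRNAs in human myeloid cells.

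RNA was sequenced from primary peritoneal macrophages, phagocytes that live in the abdominal cavity, in 3 groups: aged mice labelled Trem1-/- (libraries 1, 2 and 3), aged wild-type (WT) mice (libraries 3, 4 and 6) and young WT mice (libraries A, B, C and E). Trem1 encodes an activating receptor of myeloid cells. The labels give age as aged or young only, give no sex, batch or isolation step, include no young Trem1-/- group among the samples used here, and do not say that libraries came from separate mice, so p-values measure the spread between these libraries, which may be technical. Recovered reads ranged from 2663744 to 5603498 per library.

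Trem1 itself had 23.5, 106 and 13.8 normalized counts in the libraries labelled Trem1-/-, against 64.0, 15.3 and 27.0 in aged WT and 14.8, 8.005, 12.01 and 24.4 in young WT libraries. The deletion is therefore not visible at the level of the whole gene, and directions for that group below are those of the libraries so labelled; which exons the allele lacks is not given in the sources used here. The summed level of 11 macrophage markers ranged from 63943 to 81922 normalized counts in the libraries labelled Trem1-/-, from 23754 to 38071 in aged WT and from 74444 to 82007 in young WT libraries. The 10 B cell markers summed to 6062 to 12817 normalized counts in the libraries labelled Trem1-/-, to 13103 to 21146 in aged WT and to 2503 to 5291 in young WT libraries. Between aged WT and young WT, 10 of 11 macrophage markers fell, all 10 B cell markers rose, and so did all 7 tested T and NK cell markers and all 5 erythroid markers. The noncoding RNA row Gm26917 took 4.999% to 5.68% of reads in the libraries labelled Trem1-/-, 8.38% to 12.9% in aged WT and 5.06% to 5.70% in young WT libraries. Every ribosomal protein value below comes from these mixtures; in bulk RNA, more cells of a type and more RNA per cell cannot be told apart.

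The sequence at the start of a gene shows whether its mRNA could begin with such a run. RefSeq windows of GRCm38.p6 from 250 bases before to 50 bases after the annotated start were at hand for 64 members (76 windows). A run of at least 7 C or T within 15 bases of the start, on the coding strand, was present in 41 of the 76 windows (53.9%), against 25.5% of all 32851 windows. Read over the bases before the start alone, which cuts off what lies after it, the shares were 22.4% and 14.6%. The 9 stretches shown cover 40 bases before and 20 bases from the annotated start on, for 6 members that rose in aged WT libraries, for Rps27l, Rpl10 and Rplp0 beside them, with every such run in capitals.
Rps27, chr3:90213629-90213688, minus strand: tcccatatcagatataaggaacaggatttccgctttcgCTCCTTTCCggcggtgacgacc
Rps18, chr17:33955646-33955705, minus strand: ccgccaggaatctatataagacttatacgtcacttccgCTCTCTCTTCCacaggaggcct
Rps13, chr7:116334171-116334230, minus strand: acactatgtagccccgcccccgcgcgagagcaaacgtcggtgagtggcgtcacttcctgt
Rpl38, chr11:114668540-114668599, plus strand: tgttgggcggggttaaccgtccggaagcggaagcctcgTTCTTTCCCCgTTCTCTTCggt
Rpl37, chr15:5116573-5116632, plus strand: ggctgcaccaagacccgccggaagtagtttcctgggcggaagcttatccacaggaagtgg
Rps15a, chr7:118116128-118116187, minus strand: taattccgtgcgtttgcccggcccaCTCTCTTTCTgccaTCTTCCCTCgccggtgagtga
Rps27l, chr9:66946046-66946105, plus strand: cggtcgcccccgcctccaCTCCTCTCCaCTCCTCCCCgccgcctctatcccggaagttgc
Rpl10, chrX:74270776-74270835, plus strand: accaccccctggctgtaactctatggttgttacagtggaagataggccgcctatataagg
Rplp0, chr5:115559427-115559486, plus strand: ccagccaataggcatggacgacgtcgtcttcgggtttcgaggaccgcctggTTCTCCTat
Rps27, Rps18, Rpl38 and Rps15a, which rose in aged WT libraries, carry a run close to the start, while Rps13 and Rpl37, which also rose, have none in this window. Rpl38, Rps15a and Rps27l carry 2 runs each. A run counted here need not cover the start: both runs of Rps27l end before it, and the run of Rplp0 begins after it. Rplp0 carries the shortest run of those shown, and Rpl10 carries none. Whether a run goes with a change between groups was not tested over the members. The presence of a run depends on the annotated start: the GENCODE start of Rpl37, chr15:5116645, lies outside the stretch shown. So do those of Rps18 (chr17:33956001), Rpl38 (chr11:114668524) and, by 1 base, Rps15a (chr7:118116188), which carry runs. Both strands of the whole windows were also searched for 4 motifs: CCGGAAGT (an ETS-type site) was present in 15.8% of member windows and 3.89% of all windows, AAGATGGC (a YY1-type site) in 10.5% and 2.75%, GGGCGG (an SP1-type site) in 59.2% and 35.7%, and TATAAA in 10.5% and 13.6%. Motifs may overlap each other. A match is a run of letters and not a measured site.

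Levels per length differed widely between members. The 77 genes of both subunits and the stalk had a median of 2048 normalized counts per kb of annotated transcript. The 5 highest were the stalk proteins Rplp1 (6639 per kb) and Rplp2 (6394 per kb), which with Rplp0 recruit elongation factors to the ribosome, then Rpl26 (5273 per kb), Rpsa (4688 per kb), which is also known as the laminin receptor, and Rpl8 (4425 per kb). The 5 lowest tested members were Rpl6l (15.9 per kb), Rps3a3 (19.5 per kb) and Rps3a2 (25.6 per kb), all annotated as pseudogenes, the paralog Rps4l (33.2 per kb) and Rpl13a (37.4 per kb). Rps20, with a mean of 1129 normalized counts, came to 305 per kb over an annotated principal transcript of 3706 bases.

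**Figure D1:**
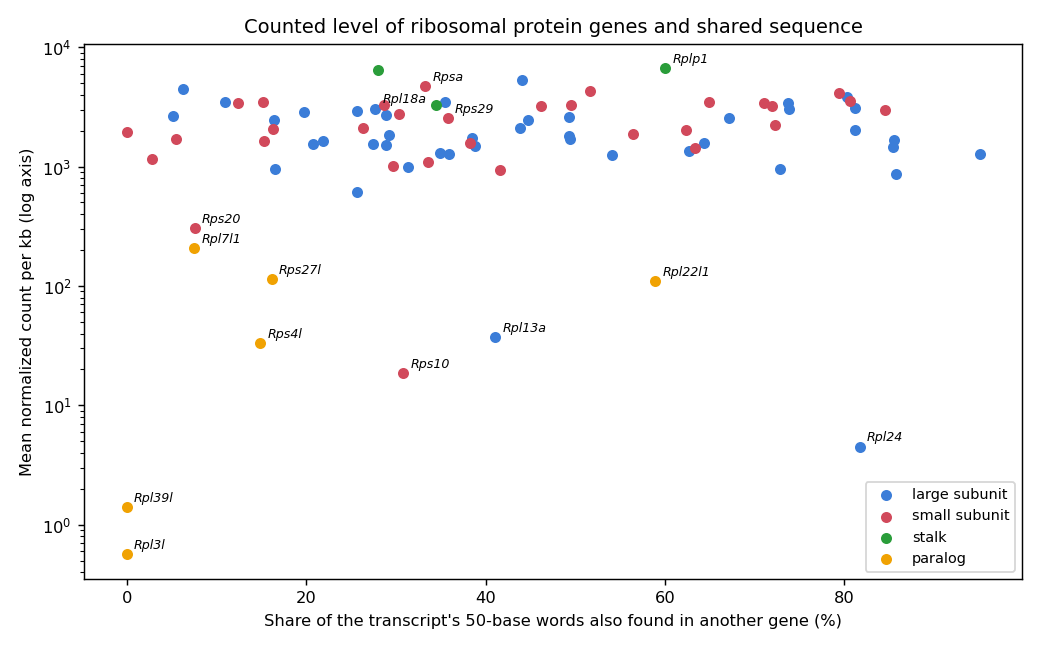
Mean normalized count per kb of transcript over the 10 libraries (log axis) against the share of each transcript's 50-base words that also occur in another gene, for subunit, stalk and paralog genes with reads. Rpl24, Rps10 and Rpl13a lie far below the other core genes, at 4.52, 18.6 and 37.4 per kb.

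A group of 3 core genes was counted at levels far below the others. Rpl24 had 0, 0.801 and 1.15 normalized counts in the libraries labelled Trem1-/-, 1.28, 5.46 and 2.695 in aged WT and 4.36, 4.31, 2.402 and 8.14 in young WT libraries. The groups lay at or near the floor of 3 reads per library, and Rpl24 was not tested. Rps10 had 5.11, 8.81 and 11.5 normalized counts in the libraries labelled Trem1-/-, 6.400, 13.1 and 11.7 in aged WT and 13.1, 8.62, 7.21 and 6.97 in young WT libraries. These values overlapped between the groups, and Rps10, at a mean of 9.24, also missed the test. Rpl13a had 20.4, 48.1 and 35.6 normalized counts in the libraries labelled Trem1-/-, 49.9, 42.6 and 44.02 in aged WT and 29.6, 36.9, 49.2 and 34.9 in young WT libraries. Its groups overlapped too. In GENCODE M21 the exons of these 3 genes are overlapped on the same strand by the rows Gm28037 (Rpl24), RPS10-NUDT3 (Rps10) and Gm45713 (Rpl13a), and each of those rows had 0 reads in every library. The counts of Rpl24, Rps10 and Rpl13a are therefore uncertain. The remaining untested members were the paralogs Rpl39l and Rpl3l, with means of 0.778 and 0.777 normalized counts, and Rpl10l, Rpl32l and Rps12l1, with 0 reads in every library. Rpl3l is known from heart and skeletal muscle, and Rpl10l and Rpl39l from testis. Sequence sharing affects many members: the share of 50-base words found in another gene reached 100% (Rps12l1), so the counts of members with large shares are uncertain wherever the counting could split reads between copies. Over the 77 genes of both subunits and the stalk, shared sequence had a Spearman rho of 0.04 with level per kb, as a description.

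Aged WT libraries were first compared with young WT libraries, groups that differ in labelled age and also in the cell type markers given above. Of the 82 tested members, 18 rose in aged WT libraries (21.95%) and 1 fell (limma, adjusted p under 0.05), while over all tested genes 14.3% rose and 19% fell. The median log2 fold change was 0.16 over the members and -0.02 over all tested genes, and 66 of 82 members lay above 0 (80.5%), against 48.5% of all genes. Of the members, 35 had all 3 aged WT values above all 4 young WT values (42.7%, against 18.4% of all genes), and 3 had them all below (3.66%, against 21.9%). The changes were small: the 18 members that rose did so by 0.25 to 0.71 on the log2 scale. The count is sensitive to single libraries, being 10 without aged WT library 6 and 11 without young WT library A. The count over all genes moves too, with 1149 to 1744 higher when single libraries are left out, against 1647 with all libraries. Gm26917, mitochondrial and immunoglobulin reads differ between these groups too. Scaling to the reads outside these genes gives 47 members higher. It also raises the count over all genes, from 1647 higher to 2698. The median is then 0.35 over the members and 0.17 over all genes. Scaling to the reads outside the members gives 28 members higher, with a median of 0.24, against 0.06 over all genes. The cell type markers given above moved with the same contrast, and their part in these changes was not tested.

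The share of all reads on these genes was also compared. Ribosomal protein genes took 4.02%, 3.58% and 4.10% of reads in the libraries labelled Trem1-/-, 4.24%, 4.09% and 4.71% in aged WT and 3.50%, 3.79%, 3.92% and 3.77% in young WT libraries. The aged WT shares lay above all young WT shares, and the libraries labelled Trem1-/- overlapped both groups. As means these are 3.90% ± 0.281 in the libraries labelled Trem1-/-, 4.34% ± 0.325 in aged WT and 3.74% ± 0.172 in young WT libraries (SD; n = 3, 3 and 4). Exact binomial 95% intervals cover counting error only and are narrow, from 4.69% to 4.73% for aged WT library 6. Of the reads left after removing Gm26917, mitochondrial and immunoglobulin genes, members took 4.33%, 3.86% and 4.47% in the libraries labelled Trem1-/-, 5.08%, 4.75% and 5.42% in aged WT and 3.80%, 4.07%, 4.22% and 4.02% in young WT libraries, so that on this base the aged WT libraries lay above both other groups. The ratio of large-subunit to small-subunit reads was 1.22 ± 0.00538 in the libraries labelled Trem1-/-, 1.1996 ± 0.0159 in aged WT and 1.22 ± 0.00491 in young WT libraries (SD; n = 3, 3 and 4).

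**Figure D2:**
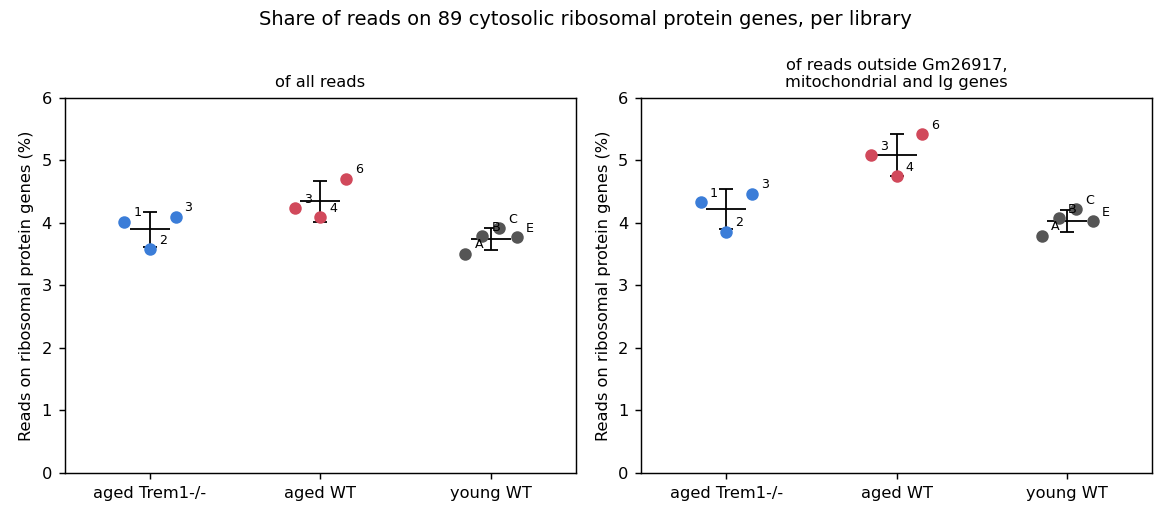
Percentage of reads on the 89 ribosomal protein genes in each library (points, named by replicate), as a share of all reads (left) and of the reads outside Gm26917, mitochondrial and immunoglobulin genes (right), with group means and SDs as bars. On the left the aged WT libraries lie between 4.09% and 4.71% and the young WT libraries between 3.50% and 3.92%.

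**Figure D3:**
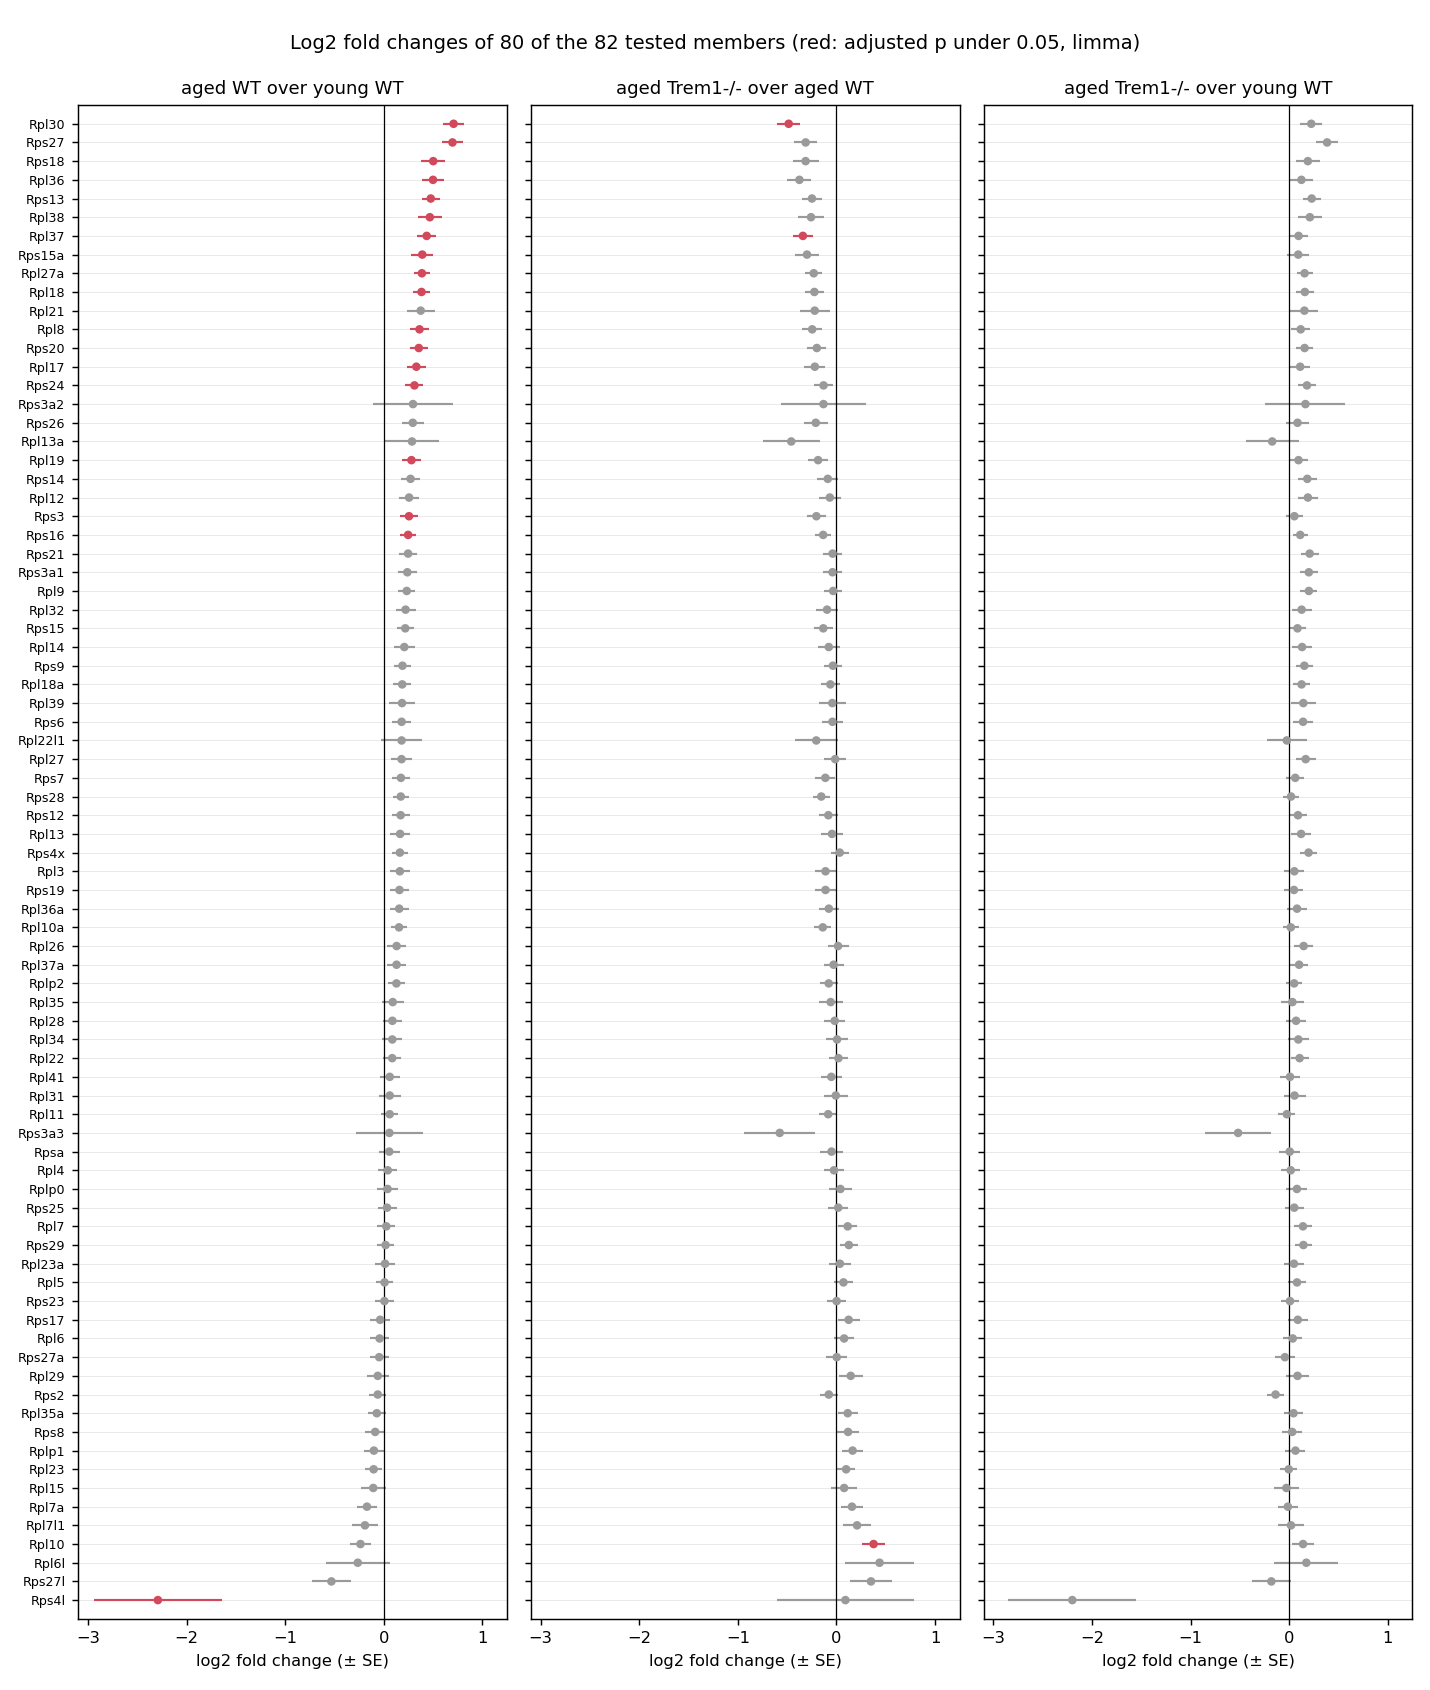
Log2 fold changes (points) with their standard errors (lines) of 80 of the 82 tested members in the 3 comparisons, ordered by aged WT over young WT; red marks an adjusted p under 0.05 (limma). In the first panel 17 members are red to the right and Rps4l to the left; in the second Rpl30 and Rpl37 are red to the left and Rpl10 to the right; in the third none is red.

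Among the 42 tested large-subunit genes 9 rose in aged WT libraries, where 14.3% of all tested genes rose. Rpl30 changed most; its protein sits in the large subunit and in yeast represses the splicing of its own pre-mRNA. The gene (ENSMUSG00000058600) lies at chr15:34440505-34443640 on the minus strand of GRCm38, and 72.8% of the 50-base words of its transcript occur in another gene. Rpl30 had 479, 498 and 554 normalized counts in the libraries labelled Trem1-/-, 783, 727 and 638 in aged WT and 461, 419, 480.4 and 391 in young WT libraries. All 3 aged WT values lay above every other value, and the libraries labelled Trem1-/- overlapped young WT. Its log2 fold change in aged WT over young WT was 0.71 ± 0.11 (SE, adjusted p = 0.000801, limma). Rpl36 had 1238, 1005 and 1138 normalized counts in the libraries labelled Trem1-/-, 1568, 1435 and 1377 in aged WT and 924, 1201, 1045 and 974 in young WT libraries. Again every aged WT value was the higher, and the change was 0.50 ± 0.11 (SE, adjusted p = 0.00603, limma). Rpl38, which in mice is needed for the translation of a subset of Hox mRNAs, followed. Rpl38 had 597, 461 and 529 normalized counts in the libraries labelled Trem1-/-, 590.0, 689.7 and 613 in aged WT and 397, 443, 518 and 469.5 in young WT libraries. The libraries labelled Trem1-/- reached into the aged WT range, and aged WT over young WT gave 0.47 ± 0.12 (SE, adjusted p = 0.0118, limma). Rpl37 is a zinc-binding protein of the large subunit. Rpl37 had 794, 723 and 858 normalized counts in the libraries labelled Trem1-/-, 1056, 1039.9 and 912 in aged WT and 690.3, 734, 795 and 743 in young WT libraries. Its aged WT values lay above those of both other groups, with a change of 0.44 ± 0.10 (SE, adjusted p = 0.00567, limma) over young WT. Rpl27a had 1444, 1402 and 1506 normalized counts in the libraries labelled Trem1-/-, 1687, 1748 and 1671 in aged WT and 1231, 1328, 1328 and 1320.3 in young WT libraries. Young WT library A stood apart below the other 3 young values; the change in aged WT was 0.39 ± 0.08 (SE, adjusted p = 0.00373, limma). The other large-subunit genes that rose were Rpl18 (log2 fold change 0.38), Rpl8 (0.36), Rpl17 (0.33) and Rpl19 (0.28). The median of the 42 was 0.16.

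Among the 30 tested small-subunit genes 9 rose as well, again beside 14.3% of all tested genes. Rps27, a zinc-binding protein of the small subunit, led them. The gene (ENSMUSG00000090733) lies at chr3:90212522-90213651 on the minus strand of GRCm38, and 46.2% of the 50-base words of its transcript occur in another gene. Rps27 had 1143, 1034 and 1232 normalized counts in the libraries labelled Trem1-/-, 1604, 1220.0 and 1428 in aged WT and 851, 924, 879 and 822 in young WT libraries. The 3 groups were ordered with young WT lowest, the libraries labelled Trem1-/- above it and aged WT highest, with 1 of the libraries labelled Trem1-/- just inside the aged WT range. Its log2 fold change in aged WT over young WT was 0.70 ± 0.11 (SE, adjusted p = 0.000844, limma). Rps18 lies in the head of the small subunit. Rps18 had 2361, 1942 and 2429.6 normalized counts in the libraries labelled Trem1-/-, 3146, 2528 and 2686 in aged WT and 1727, 1951, 2223 and 1966 in young WT libraries. Every aged WT value lay above the others, with a change of 0.50 ± 0.12 (SE, adjusted p = 0.00884, limma) over young WT. Rps13 had 648, 606 and 689 normalized counts in the libraries labelled Trem1-/-, 769, 706 and 837 in aged WT and 531, 554, 579 and 546 in young WT libraries. The young WT values were the lowest and the most tightly grouped, and aged WT over young WT gave 0.48 ± 0.09 (SE, adjusted p = 0.00256, limma). Rps15a had 1099, 913 and 1108 normalized counts in the libraries labelled Trem1-/-, 1323, 1236 and 1267 in aged WT and 925, 844, 1047 and 1094 in young WT libraries. The aged WT values were the highest, with a change of 0.39 ± 0.11 (SE, adjusted p = 0.0204, limma); the call was lost without any 1 of aged WT libraries 3 and 6 and young WT libraries A and B. Others that rose were Rps20 (log2 fold change 0.36), Rps24 (0.31), Rps3 (0.26) and Rps16 (0.25), and the median of the 30 was 0.19. Of these 18 members, 10 passed under every scaling, pseudocount, filter and tool tried and without each library in turn: Rpl8, Rpl18, Rpl27a, Rpl30, Rpl36, Rpl37, Rpl38, Rps13, Rps18 and Rps27. Rps3 lost its call without any 1 of 7 libraries.

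**Figure D4:**
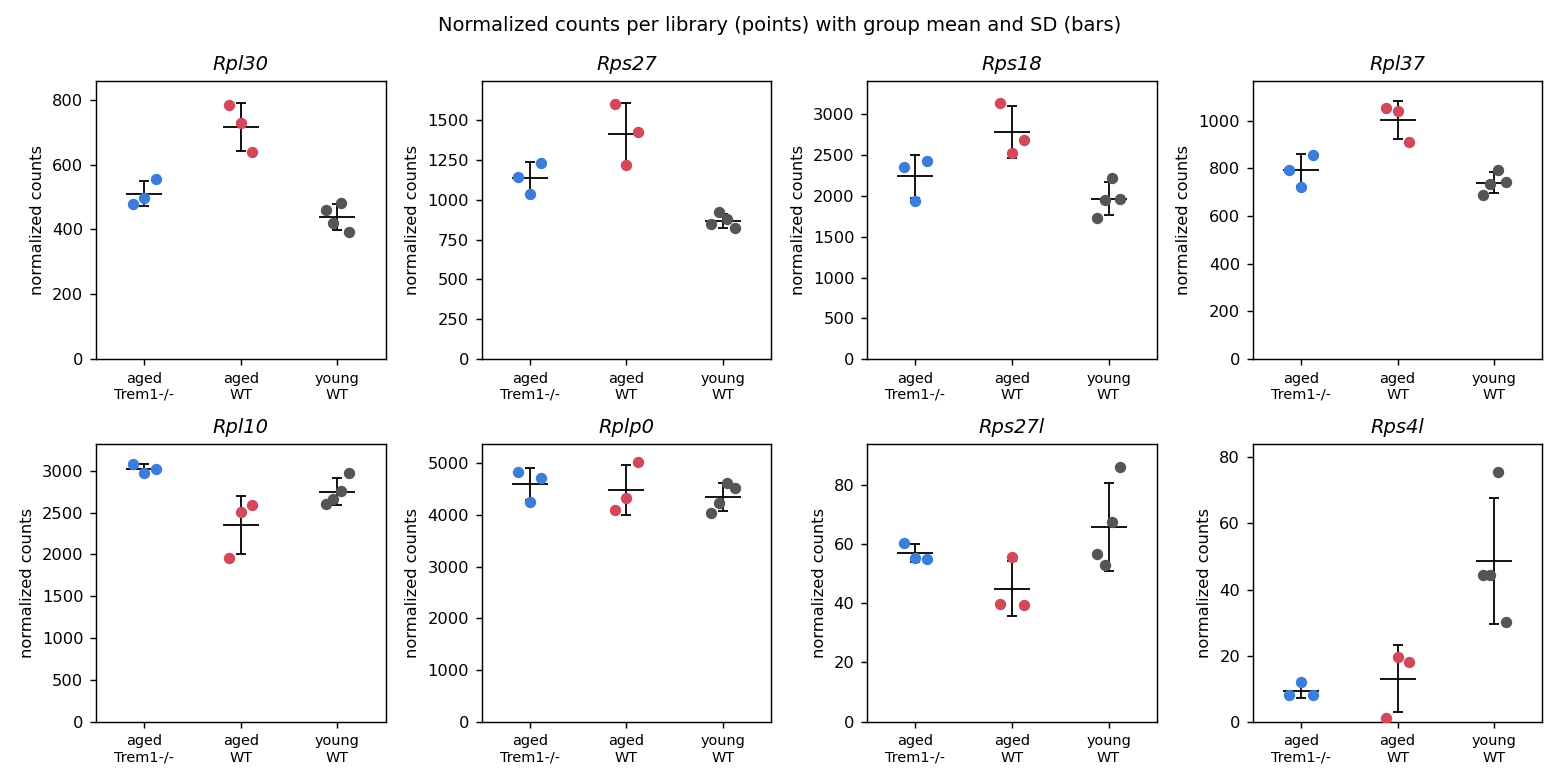
Normalized counts per library (points) with group means and SDs (bars) of 8 members in the libraries labelled Trem1-/-, aged WT and young WT; axes start at 0. Rpl30, Rps27, Rps18 and Rpl37 are highest in aged WT, Rplp0 overlaps between all groups, and Rps4l is highest in young WT.

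None of the 3 stalk genes passed in aged WT over young WT. Rplp0 had 4833, 4256 and 4705 normalized counts in the libraries labelled Trem1-/-, 4096, 4332 and 5022 in aged WT and 4033, 4239, 4624 and 4527 in young WT libraries. The groups overlapped throughout. Rplp1 had 3549, 3123 and 3796 normalized counts in the libraries labelled Trem1-/-, 3005, 3061 and 3256 in aged WT and 3061, 3263, 3603 and 3412 in young WT libraries. The aged WT values lay within the range of both other groups or just below it. Rplp2 had 2709.6, 2561 and 2781 normalized counts in the libraries labelled Trem1-/-, 2768, 2876 and 2854 in aged WT and 2475, 2591, 2598 and 2706 in young WT libraries. The aged WT values lay just above the young WT values. The 3 log2 fold changes, aged WT over young WT, were 0.04 ± 0.11, -0.10 ± 0.10 and 0.13 ± 0.08 (± SE). The 5S ribonucleoprotein gave log2 fold changes of 0.01 ± 0.09 for Rpl5 and 0.06 ± 0.09 for Rpl11, without a call. Nor did a call appear for Rps6, the substrate of S6 kinase (0.18 ± 0.10), Rps27a, which is made as a fusion to ubiquitin (-0.05 ± 0.10), or Rpsa (0.06 ± 0.11). Among the proteins of the ribosome that the symbol rule misses, Fau, made as a fusion to a ubiquitin-like protein, and Rack1 gave no call in any comparison: aged WT over young WT was 0.17 ± 0.09 for Fau and -0.07 ± 0.10 for Rack1 (log2 fold change ± SE). Rpl36al was too low to test.

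Paralogs were scarce beside their core genes. Rps4l, annotated on chromosome 6 (chr6:148354656-148355598, plus strand) as a transcribed processed pseudogene, was the only member that fell in aged WT libraries. Rps4l had 8.17, 12.02 and 8.03 normalized counts in the libraries labelled Trem1-/-, 1.28, 19.6 and 17.97 in aged WT and 44.4, 44.3, 75.7 and 30.2 in young WT libraries. All 4 young WT values lay above the values of both aged groups. Its log2 fold change in aged WT over young WT was -2.29 ± 0.65 (SE, adjusted p = 0.0189, limma), and the call was lost without young WT library C (adjusted p = 0.0534, limma). The size depends on aged WT library 3, which held 1 Rps4l read, below the floor of 3 reads: without it the log2 fold change was -1.25, still called, and edgeR with all libraries gave -1.81. As a share of Rps4x reads, Rps4l gave 0.412% ± 0.108 in the libraries labelled Trem1-/-, 0.578% ± 0.457 in aged WT and 2.44% ± 0.958 in young WT libraries. Rps27l had 60.3, 55.3 and 55.1 normalized counts in the libraries labelled Trem1-/-, 39.7, 55.7 and 39.5 in aged WT and 56.6, 52.96, 67.3 and 86.00 in young WT libraries. Rps27l, a target of p53, overlapped between the groups and changed by -0.53 ± 0.20 (SE, adjusted p = 0.0560, limma), which did not pass, although it did without aged WT library 4 or young WT library B. As a share of Rps27 reads, Rps27l gave 5.27%, 5.34% and 4.47% in the libraries labelled Trem1-/- and 2.47%, 4.56% and 2.77% in aged WT. In young WT libraries the shares were 6.65%, 5.73%, 7.65% and 10.5%, all above those of the other groups. Rps27 itself rose in aged WT over young WT, so the share also moves with its core gene. Rpl22l1, whose core gene Rpl22 is needed for the development of T cells, had 4.39% ± 0.272 of the reads of Rpl22 in the libraries labelled Trem1-/-, 5.25% ± 1.40 in aged WT and 4.82% ± 0.600 in young WT libraries. Rpl7l1 had 8.82% ± 0.472 of the reads of Rpl7 in the libraries labelled Trem1-/-, 8.31% ± 1.35 in aged WT and 9.63% ± 1.12 in young WT libraries (SD; n = 3, 3 and 4). Neither ratio separated the groups.

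Near-identical copies could take reads from their source genes. Of the rows named -ps, 298 in all, 205 had reads and 26 were tested; 1 of them rose in aged WT libraries, Rps13-ps2, by 0.52 ± 0.17 (adjusted p = 0.0299, limma), beside Rps13. The row Rps27rt, which shares more of its sequence with Rps27 than any other gene, averaged 42.1 ± 9.12 normalized counts in the libraries labelled Trem1-/-, 43.7 ± 7.60 in aged WT and 25.3 ± 2.70 in young WT libraries, and rose by 0.76 ± 0.21 (adjusted p = 0.0155, limma) in aged WT over young WT. Together the -ps rows held 0.0361% ± 0.00252 of reads in the libraries labelled Trem1-/-, 0.0460% ± 0.00247 in aged WT and 0.0356% ± 0.00133 in young WT libraries. Grouped by shared sequence, 6 of 19 tested members with under 25% shared rose in aged WT libraries (median 0.19), as did 8 of 33 with 25% to 50% (median 0.18) and 4 of 30 with at least 50% (median 0.08). Over all tested genes 14.3% rose, with a median of -0.02, and the last of these counts is near that share.

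In the authors' deposited table of aged WT against young WT, 84 members carried an adjusted p, of which 25 were higher (29.8%) and 1 lower (1.19%) at the same threshold. Over all 17359 genes with an adjusted p in the authors' deposited table, 10.6% were higher and 11.2% lower. All 18 members called higher here were among those 25 in the authors' deposited table.

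The aged libraries labelled Trem1-/- were next compared with aged WT libraries, 2 groups whose labels differ in Trem1 genotype but whose Trem1 counts overlapped. Of the 82 members, 2 fell and 1 rose (limma, adjusted p under 0.05), while over all tested genes 6.82% fell and 11.5% rose. The median was -0.06 over the members and 0.02 over all genes. Of the members, 26 lay above 0 (31.7%, against 51.5% of all genes), 17 had all values in the libraries labelled Trem1-/- below all aged WT values (20.7%, against 15.5%), and 2 had them all above (2.44%, against 19.4%). Rpl30 fell by 0.48 ± 0.12 (SE, adjusted p = 0.0172, limma) and Rpl37 by 0.34 ± 0.10 (SE, adjusted p = 0.0432, limma). Rpl10, which joins the large subunit last and completes its catalytic centre, rose. The gene (ENSMUSG00000008682) lies at chrX:74270812-74273135 on the plus strand of GRCm38, and 73.7% of the 50-base words of its transcript occur in another gene. Rpl10 had 3078, 2976 and 3025 normalized counts in the libraries labelled Trem1-/-, 1953, 2503 and 2591 in aged WT and 2602, 2660.1, 2763 and 2972 in young WT libraries. All values in the libraries labelled Trem1-/- lay above all other values, and aged WT library 3 was the lowest. Its log2 fold change over aged WT was 0.38 ± 0.12 (SE, adjusted p = 0.0463, limma). Each of the 3 calls was lost under some alternatives. The call on Rpl30 was lost without library 1 or 2 labelled Trem1-/- or aged WT library 3, where its adjusted p was 0.0545 to 0.0619. That on Rpl37 was lost in a fit of these groups alone (adjusted p = 0.107), without a filter on low values (adjusted p = 0.128) and without any 1 of 8 libraries. That on Rpl10 was lost under every other scaling, with edgeR (adjusted p = 0.0791) and without any 1 of 7 libraries. On reads outside Gm26917, mitochondrial and immunoglobulin genes 26 members fell, none rose and the median was -0.27, with that of all genes at -0.19. Over all genes the count that fell went from 785 to 1820 under this scaling. Scaled to reads outside the members, 8 fell, with a median of -0.17 over the members and -0.09 over all genes. Of the other members named above, -0.31 ± 0.12 was the log2 fold change of Rps27, -0.31 ± 0.13 that of Rps18 and -0.38 ± 0.12 that of Rpl36, without a call. Rps4l averaged 9.41 normalized counts in the libraries labelled Trem1-/- and 12.96 in aged WT libraries. It had no call and no settled direction, with a log2 fold change of 0.09 ± 0.70, against -0.95 without aged WT library 3, which held 1 read, and -0.52 with edgeR. It shares the aged WT libraries with the comparison of aged WT and young WT, so the values of the 2 comparisons are not independent. In it 9 of 11 macrophage markers rose, and 4 of 10 B cell, 6 of 7 T and NK cell and all 5 tested erythroid markers fell; their part was not tested.

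Comparing the aged libraries labelled Trem1-/- with young WT libraries, no member passed in either direction (limma), with 5 higher and 1 lower at an unadjusted p under 0.05; over all tested genes 0.921% were called, 0.591% higher and 0.33% lower. edgeR gave 0 as well, while DESeq2 called 1 lower, Rps4l, which also passed in a fit of these groups alone or without aged WT library 3. The median was 0.09 over the members and 0.01 over all genes, 71 of 82 members lay above 0 (86.6%, against 51.4% of all genes), and 17 had all values in the libraries labelled Trem1-/- above all young WT values (20.7%, against 8.05%) and 2 had them all below (2.44%, against 7.72%). Rps27 had the highest log2 fold change, 0.38 ± 0.11, and Rps4l the lowest, -2.20 ± 0.65. No macrophage marker passed, and 2 of 10 B cell markers rose.

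Genes that build and regulate the ribosome were counted in the same fit. Of 65 ribosome biogenesis factors 7 rose (10.8%, against 14.3% of all tested genes) and none fell (against 19%) in aged WT over young WT libraries, and 4 fell (6.15%, against 6.82%) and none rose (against 11.5%) in libraries labelled Trem1-/- over aged WT. The shares of called genes were therefore no higher than over all genes. Among those called was Mdn1, the ATPase that remodels large-subunit precursors. It ranged from 498 to 529 normalized counts in the libraries labelled Trem1-/-, 648 to 829 in aged WT and 471 to 496 in young WT, so that aged WT lay above both other groups. Its log2 fold changes were 0.64 ± 0.10 (adjusted p = 0.000841) in aged WT over young WT and -0.55 ± 0.11 (adjusted p = 0.00687) in libraries labelled Trem1-/- over aged WT. Wdr43, a small-subunit processome protein, gave 0.73 ± 0.13 (adjusted p = 0.00133) and -0.72 ± 0.13 (adjusted p = 0.00567) in the same order of comparisons, and Tsr1, which acts on late small-subunit precursors, 0.61 ± 0.15 (adjusted p = 0.00882) and -0.51 ± 0.16 (adjusted p = 0.0450). Nop56, a core protein of box C/D snoRNPs, gave 0.41 ± 0.13 (adjusted p = 0.0352) and -0.51 ± 0.14 (adjusted p = 0.0301), and Mphosph10, another processome protein, rose in aged WT over young WT, by 0.58 ± 0.14 (adjusted p = 0.00966). Of 18 genes of RNA polymerase I and rDNA transcription 3 rose in aged WT over young WT (16.7%, near the 14.3% of all genes): Polr2h, a subunit shared by the nuclear polymerases (1.09 ± 0.25, adjusted p = 0.00645), Taf1d (0.47 ± 0.13, adjusted p = 0.0168) and the rDNA factor Ubtf (0.27 ± 0.09, adjusted p = 0.0342). Taf1d fell in libraries labelled Trem1-/- over aged WT, by 0.72 ± 0.14 (adjusted p = 0.00650). The list medians were 0.12 for biogenesis and 0.15 for polymerase I in aged WT over young WT, and -0.13 and -0.22 in libraries labelled Trem1-/- over aged WT.

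Of 30 tested regulators of mTORC1 and of TOP mRNAs, 9 fell (30%, against 19% of all genes) and 2 rose (6.67%, against 14.3%) in aged WT over young WT (median -0.25). In libraries labelled Trem1-/- over aged WT 4 rose (13.3%, against 11.5%) and 1 fell (3.33%, against 6.82%), shares near or below those of all genes (median 0.25). Deptor, an inhibitor of mTOR, ranged from 135 to 168 normalized counts in the libraries labelled Trem1-/-, 65.3 to 80.8 in aged WT and 151 to 157 in young WT. Its aged WT values lay below all others, with log2 fold changes of -1.06 ± 0.12 (adjusted p = 0.000220) in aged WT over young WT and 1.01 ± 0.13 (adjusted p = 0.00166) in libraries labelled Trem1-/- over aged WT. Rragc, a Rag GTPase that brings mTORC1 to lysosomes, gave -0.58 ± 0.10 (adjusted p = 0.00116) and 0.63 ± 0.10 (adjusted p = 0.00353). Lamtor4, of the Ragulator complex that anchors the Rag GTPases, fell in aged WT by 0.98 ± 0.18 (adjusted p = 0.00210) and did not pass in the other comparison. Sesn3, a sestrin that restrains mTORC1, rose in aged WT by 1.54 ± 0.24 (adjusted p = 0.000863) and fell in libraries labelled Trem1-/- over aged WT by 0.84 ± 0.26 (adjusted p = 0.0449). Eif4ebp1, which blocks cap-dependent initiation until mTORC1 phosphorylates it, and the La-related protein gene Larp4b rose in libraries labelled Trem1-/- over aged WT by 0.85 ± 0.19 (adjusted p = 0.0113) and 0.45 ± 0.10 (adjusted p = 0.0134). The genes that moved include both activators and inhibitors of mTORC1.

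The remaining lists held from 1 to 5 called genes each in aged WT over young WT, where 14.3% of all genes rose and 19% fell. Of the snoRNA host genes 25% rose and of the other TOP mRNAs 23.5%. The initiation, elongation and transcription factor lists gave 8.33% to 11.1%. The median log2 fold change of the snoRNA hosts was 0.48 there and -0.41 in libraries labelled Trem1-/- over aged WT. That of the other TOP mRNAs was 0.08 and 0.002. Of 36 initiation factors 3 rose and 2 fell in aged WT over young WT, among them the helicases Eif4a1 (-0.52 ± 0.13, adjusted p = 0.0102) and Eif4a2 (0.43 ± 0.12, adjusted p = 0.0162), the subunit Eif3f (0.36 ± 0.11, adjusted p = 0.0279) and the scaffold Eif4g1 (-0.30 ± 0.10, adjusted p = 0.0330). Of 9 elongation factors Eef1g rose (0.31 ± 0.10, adjusted p = 0.0355). Of 17 other mRNAs with a TOP element 4 rose, 3 of them also counted among these factors (Eef1g, Eif3f and Eif3e, the last by 0.30 ± 0.10, adjusted p = 0.0335), the fourth being the histone chaperone Nap1l1 (0.67 ± 0.13, adjusted p = 0.00270); 2 fell in libraries labelled Trem1-/- over aged WT, Nap1l1 (-0.46 ± 0.14, adjusted p = 0.0414) and Hnrnpa1 (-0.44 ± 0.14, adjusted p = 0.0432). Of 16 tested snoRNA host genes 4 rose and 1 fell in aged WT over young WT, among them the noncoding hosts Gas5 (0.59 ± 0.12, adjusted p = 0.00273) and Snhg17 (0.69 ± 0.21, adjusted p = 0.0242), and 2 fell in libraries labelled Trem1-/- over aged WT, Gas5 (-0.48 ± 0.12, adjusted p = 0.0226) and Snhg4 (-1.27 ± 0.38, adjusted p = 0.0403). Of 11 transcription factors linked to ribosomal protein genes Gabpb1, a subunit of the ETS-type factor GABP, rose in aged WT (0.72 ± 0.16, adjusted p = 0.00612). The genes that fell in libraries labelled Trem1-/- over aged WT were 11.8% of the other TOP mRNAs and 12.5% of the snoRNA hosts. Over all genes 6.82% fell in that comparison. In libraries labelled Trem1-/- over young WT none of these lists held a called gene.

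**Figure D5:**
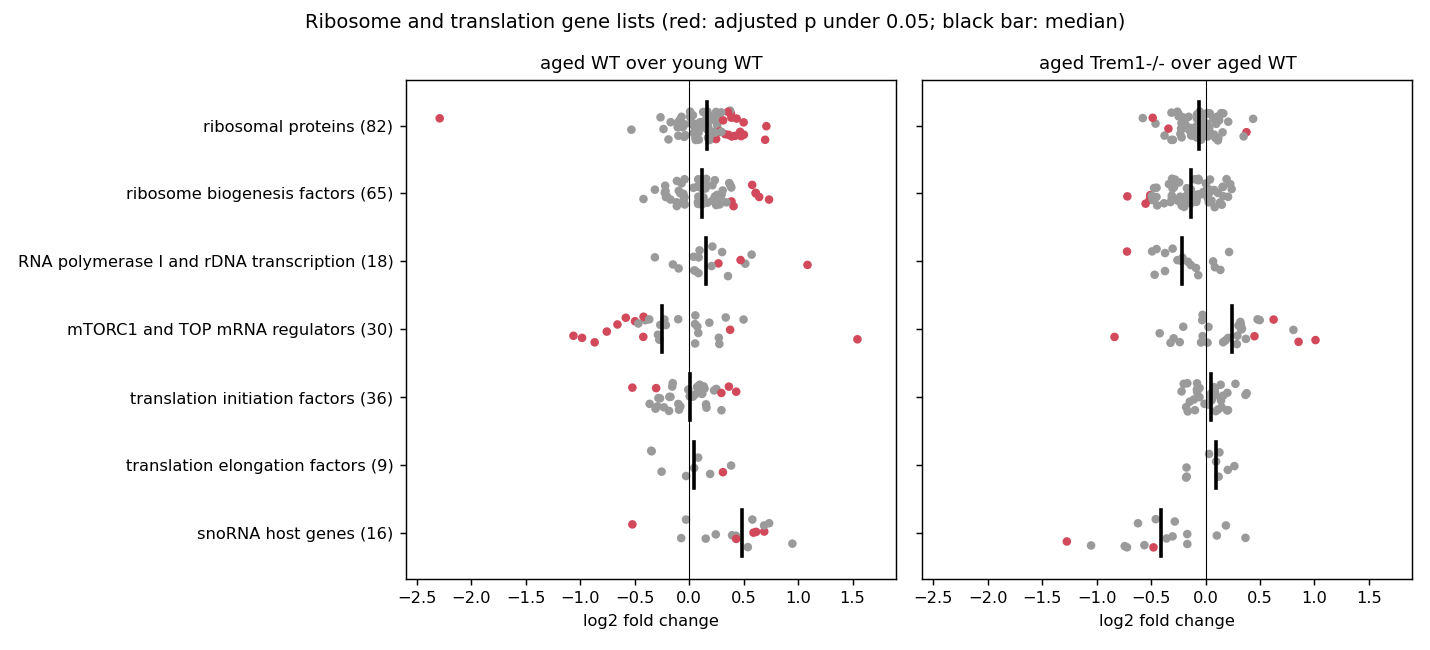
Log2 fold changes of the tested genes of 7 lists (number tested in brackets; points, red where the adjusted p is under 0.05 by limma; black bars, medians) in aged WT over young WT (left) and libraries labelled Trem1-/- over aged WT (right). The median of the mTORC1 and TOP regulators is -0.25 on the left and 0.25 on the right, and that of the ribosomal proteins 0.16 and -0.06.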

How the data were processed

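RNA sequencing of 10 libraries was analysed from the deposited table of 54532 genes. Per the labels' protocols, RNA was extracted with a Qiagen kit, reverse transcribed with a Takara stranded kit and made into NEBNext libraries. The submitters' processing notes name the build GRCm38 with featureCounts 1.5.0-p3, STAR, fastp and DESeq2 1.20.0; whether counting used strand is not given in the sources used here. The authors deposited normalized counts, recorded here as signal, for every library together with a mean. In each library 100% of values were whole multiples of 1 number (tolerance 1e-06), so whole read counts were recovered, 2663744 to 5603498 per library; a floor of 3 reads was 1.85 to 3.84 normalized counts. The authors' comparison of aged with young WT was deposited as a Wald score, log2 fold changes with standard errors, and raw and adjusted p-values.

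Members and gene lists were chosen with earlier results of these data known. The test, two-sided, was limma-trend in R 4.3.3 (limma version 3.58.1), applied to log2(normalized count + 1) in 1 model of 3 groups where the mean reached 10, with Benjamini-Hochberg adjustment over all 11506 genes and a threshold of 0.05. The added 1 shrinks changes of low genes, while a library with almost no reads can enlarge them, as for Rps4l. Scripts were tested on simulated data, with changes planted in genes drawn from all those tested. Changes of 1.2-fold and 1.5-fold were planted in 67 genes each and of 2-fold in 66, out of 11506. There limma recovered 0% of genes changed 1.2-fold and 7.46% of those changed 1.5-fold. Of genes changed 2-fold it recovered 37.9% to 51.5%, depending on the comparison. A missing call therefore does not show that a gene is unchanged. These shares are not those of the members, whose median within-group SD was 0.10 log2 units, against 0.26 over all tested genes. In aged WT over young WT 33.3% of all genes were called, far more than were planted, which makes the adjusted threshold easier to pass. Alternatives were edgeR 4.0.16 scaling and its quasi-likelihood test, DESeq2 1.42.0, 2 other scalings, pseudocounts, no filter, the compared groups alone and each library left out. Chi-square values between replicates were 4.83 to 24.4 per degree of freedom, beyond sampling noise, and all were kept as separate samples. GENCODE M21 gave coordinates and the shortest principal transcript for levels per kb, and matched 53749 symbols (98.6%). Shared sequence is the percentage of a transcript's 50-base words found in another gene of GENCODE M21. Promoter windows are from RefSeq on GRCm38.p6.

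Genes were named by rule: the 10 largest called changes per comparison and direction, the stalk, Rpl5, Rpl11, the paralogs with core genes, the 5 highest and lowest levels per kb, Rps6, Rps27a, Rpsa, untested members, ribosomal proteins outside the symbol rule and, per list and comparison, up to 4 called genes with the smallest adjusted p. Others were named to complete a count or after their values were seen (Rps20, Rps27rt, Rps13-ps2, the overlapping rows). Some genes that the rule selects are not reported here. Protein features planned for the paralogs were not run.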

Additional observations from a re-analysis of the deposited data

Results flagged for a closer look

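Within groups of 4 libraries, a value was picked out when its gap to the nearest other value, divided by the whole range of the group, passed Dixon's 95% critical value; chance does this in about 1 in 20 groups. Of 92 sets of young WT values screened, 5 passed. For Rpl8 (ratio 0.953), Rpl35 (0.930) and Rpl27a (0.918) the outlying library was young WT A, the lowest, with 3117, 1068 and 1231 normalized counts for Rpl8, Rpl35 and Rpl27a. For Rps12 (ratio 0.894) it was young WT C, the highest, with 1739 normalized counts. For Rpl7l1 (ratio 0.883) it was young WT E, the highest, with 338 normalized counts. Rpl8 and Rpl27a, which rose in aged WT, kept their calls without young WT library A.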

How the results depend on the processing

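No paired analysis was possible because the labels' replicate numbers of the aged libraries share only the number 3 and the young WT libraries carry letters. In aged WT over young WT, scaling to reads outside Gm26917, mitochondrial and immunoglobulin genes gave 2698 genes higher and 1421 lower, 47 members higher and a member median of 0.35, while scaling to reads outside the members gave 28 members higher and a median of 0.24. DESeq2 gave 30 members higher, with a median of 0.20 over the members and 0.02 over all genes. Leaving out 1 library at a time gave 10 to 22 members higher and 0 to 2 lower. Over all genes it gave 1149 to 1744 higher and 1591 to 2417 lower, and the other settings gave 1565 to 2698 higher and 1421 to 2195 lower. The median of all genes moved by the scaling to reads outside Gm26917, mitochondrial and immunoglobulin genes to 0.17 here and to -0.19 in the libraries labelled Trem1-/- over aged WT. The member median less that of all genes was 0.14 to 0.21 in aged WT over young WT, -0.12 to -0.03 in libraries labelled Trem1-/- over aged WT and 0.04 to 0.13 in libraries labelled Trem1-/- over young WT, over all settings with the filter on low values. Without that filter it was -0.04 in aged WT over young WT and 0.21 in libraries labelled Trem1-/- over aged WT, where the median of all genes takes in rows with few reads.

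In libraries labelled Trem1-/- over aged WT, scaling to reads outside Gm26917, mitochondrial and immunoglobulin genes gave 745 genes higher and 1820 lower, 0 members higher and 26 lower, and a member median of -0.27. Scaling to reads outside the members gave 0 members higher, 8 lower and a median of -0.17. TMM scaling and edgeR gave 0 members higher, DESeq2 7 lower, and no filter 0 higher and 1 lower. A fit of the compared groups alone gave 726 genes higher and 445 lower, 0 members higher and 1 lower. Apart from leaving out libraries, the settings gave 726 to 1334 genes higher and 445 to 1820 lower. Leaving out 1 library at a time gave 762 to 1785 genes higher and 315 to 1015 lower, 0 to 1 members higher and 0 to 3 lower; 0 members fell without library 1 or 2 labelled Trem1-/- or aged WT library 3.

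In libraries labelled Trem1-/- over young WT, genes called higher were 161 without a filter, 253 with DESeq2 and 154 in a fit of these groups alone. Genes called lower were 102, 195 and 145 under these settings and 60 under the scaling outside Gm26917, mitochondrial and immunoglobulin genes. Leaving out 1 library at a time gave 0 to 159 genes higher, 0 to 109 lower and 0 to 1 members lower, and DESeq2 and the groups alone gave 1 member lower. Member shares of the reads outside Gm26917, mitochondrial and immunoglobulin genes were 4.33%, 3.86% and 4.47% in the libraries labelled Trem1-/-, 5.08%, 4.75% and 5.42% in aged WT and 3.80%, 4.07%, 4.22% and 4.02% in young WT libraries. In the 250 bases before the start alone, 17 member windows held a pyrimidine run (22.4%, against 14.6% of all windows), 3 AAGATGGC (3.95%, against 1.56%) and 5 TATAAA (6.58%, against 12.4%). Called genes over all settings ranged from 4 to 20 for biogenesis factors, 1 to 7 for polymerase I, 8 to 12 for mTORC1 and TOP regulators, 2 to 10 for initiation factors, 3 to 9 for snoRNA hosts, 1 to 8 for other TOP mRNAs, 0 to 3 for elongation factors and 1 to 5 for linked transcription factors in aged WT over young WT, and from 2 to 21, 1 to 9, 2 to 9, 0 to 4, 0 to 6, 0 to 6, 0 to 2 and 0 to 2 for the same lists in libraries labelled Trem1-/- over aged WT. The cause of these shifts was not tested. No member changed the direction of a call.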

Other observations

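Ribosomal protein genes had a smaller median spread between libraries of the same group than all tested genes. The median within-group SD was 0.10 log2 units over the 82 tested members and 0.26 over all 11506 tested genes. Where the mean reached 100 normalized counts it was 0.10 over 75 members and 0.18 over 5344 genes. The sets were not otherwise matched for level. Between aged WT libraries 3 and 6 chi-square per degree of freedom was 10.98 over the members and 9.89 over all tested genes. In every other pair of replicates it was lower over the members.

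Across the 82 tested members the log2 fold change in aged WT over young WT had a Spearman rho of -0.14 with shared sequence, -0.08 with transcript length and -0.06 with mean level. Members share libraries and are not independent, so these are descriptions.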
